A study of Mus musculus with 12 samples.

Results

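The collagens, laminins and fibronectin of B16F10 cells, a mouse melanoma line, were followed across 4 culture conditions. The group was defined by gene symbol. It holds every protein-coding collagen chain (Col followed by a type and a chain number), every laminin alpha, beta and gamma chain, and the genes Fn1, Tnc, Sparc and Postn. The rule found 59 of the 55487 genes in the deposited count table, namely 44 collagens, 11 laminins and 4 others.

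B16F10 cells labelled as wild type were grown for 24 h in medium taken from bone-marrow-derived macrophages, abbreviated BMDM in the series. These macrophages had themselves been treated for 24 h, and that treatment names the 4 groups of 3 libraries. Macrophages written B16F10-BMDM in the labels, and TAM in what follows, had received 75% B16F10 conditioned medium, M1 macrophages INF-γ (so spelled in the labels) at 20 ng/ml, M2 macrophages IL-4 at 20 ng/ml, and M0 macrophages control DMEM. All libraries are therefore melanoma cells that received macrophage medium, none is a culture without it, and whether cytokine or tumour medium was carried over is not stated. The labels do not state that replicate libraries are different cultures, and the p-values then reflect library-to-library spread that may be technical.

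Collagens are secreted as triple helices of 3 chains. Fibrillar types build fibres, type IV builds the sheet-like network of basement membranes, and FACIT types sit on the surface of fibrils. Multiplexins lie in basement membrane zones, and transmembrane types link matrix to cells. Laminins join 1 alpha, 1 beta and 1 gamma chain into a cross-shaped molecule that cells hold through integrins and dystroglycan, and the alpha chain carries the main sites for cells. Fibronectin is a glycoprotein that integrins assemble into fibrils. Melanoma cells are known to make part of the matrix they move through.

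Library totals lay between 15916756 and 20863973 counts. Melanocytic genes summed to between 14404 and 15236 CPM (counts relative to the library total, here without further scaling between libraries) in TAM, 13746 to 14246 in M1, 18728 to 19099 in M2 and 20181 to 20435 in M0. Of 16 macrophage markers only 4 were abundant enough to be tested, and the 16 summed to 3.49 to 4.29 CPM in TAM, 6.54 to 7.03 in M1, 5.46 to 6.38 in M2 and 5.22 to 7.77 in M0. Ptprc, Adgre1, Tyrobp, Itgam and the C1q chains had no count in any library. The 8 fibroblast markers summed to 25.8 to 28.1 CPM in TAM, 13.7 to 18.1 in M1, 22.8 to 25.6 in M2 and 17.1 to 23.5 in M0, with Dpt and Thy1 at 0 throughout. Most of this was Pdgfrb, which averaged 26.0 CPM in TAM, 14.9 in M1, 21.6 in M2 and 18.7 in M0 after scaling between libraries. The 7 endothelial markers summed to 4.83 to 5.68 CPM in TAM, 1.62 to 2.54 in M1, 1.22 to 1.82 in M2 and 0.926 to 2.14 in M0, with Cdh5 and Kdr at 0 throughout. Here most was Vwf, which averaged 5.19 CPM in TAM, 1.97 in M1, 1.25 in M2 and 1.42 in M0 after the same scaling. The part of these cell types in the results was not tested beyond these values. M0 replicate 1 stood apart from the other libraries. Its log2 CPM correlated at r = 0.95 and 0.952 with the other M0 libraries, against 0.997 for the other pairs within groups, and the counts of calls, and each member whose call against M0 changed without it, are given both ways. Over the 35 called member results against M0 its removal moved the log2 fold change by at most 0.61 (Col7a1 in TAM), next by 0.41, with a median of 0.16.

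A mean of at least 1 CPM in any group, after TMM scaling between libraries, was reached by 32 of the 59 genes, namely 23 collagens, 6 laminins, Fn1, Sparc and Postn. These were 7 fibrillar chains (Col1a1, Col1a2, Col2a1, Col5a1, Col5a3, Col11a2, Col27a1), 4 type IV chains (Col4a1, Col4a2, Col4a4, Col4a5), 6 FACIT chains (Col9a1, Col9a2, Col9a3, Col12a1, Col16a1, Col20a1), both multiplexins (Col15a1, Col18a1), the transmembrane Col17a1, and Col7a1, Col10a1 and Col28a1. The laminin chains described here were Lama4, Lama5, Lamb1, Lamb2 and Lamc1. The other 27 were Col3a1, Col4a3, Col4a6, Col5a2, Col6a1 to Col6a6, Col8a1, Col8a2, Col11a1, Col13a1, Col14a1, Col19a1, Col22a1 to Col26a1, Lama1, Lama2, Lama3, Lamb3, Lamc3 and Tnc. Among these no library was above 1.25 CPM, 21 stayed under 0.5 CPM in every library, and Col6a2, Col6a5, Col13a1 and Tnc had no count at all. Col3a1, a partner of type I collagen in connective tissue, was never above 0.174 CPM. Of the Col6 chains, which form beaded filaments, Col6a1 had 0.261, 0.0996 and 0.301 CPM in TAM, 1.25, 0.697 and 0.446 in M1, 0.256, 0.0991 and 0 in M2, and 0, 0 and 0.287 in M0. It failed the low-count filter over 12 libraries and passed it without M0 replicate 1 only through M1, so its M1 to M0 difference there (2.30 ± 0.74 on the log2 scale) is a description. The filter on low counts kept 34 members for the tests, the 32 above and Col14a1 and Col23a1, so no count below covers the other 25.

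The start regions of 3 genes or gene pairs with patterns described further on are shown first. RefSeq holds a start window for 43 of the 59 genes on GRCm38.p6. Windows were searched on both strands, over the 250 bases before the start, for TTCNNNGAA (the core of STAT sites), the core of the interferon-stimulated response element, TGANTCA (AP-1), TGACGTCA (CREB) and TATAAA. The window of Col28a1, the chain that was counted almost only in M1, lies at chr6:8192618-8192867 on the minus strand, and capitals mark its TTCNNNGAA match, at -104 to -96 from the start. The window of Col11a2, the fibrillar chain that was higher in TAM and lower in M1, lies at chr17:34038888-34039137 on the plus strand, and capitals mark its TATAAA match, at -143 to -138 from the start. That start is RefSeq's, and it lies upstream of the GENCODE gene start at 34039437 used further on. Col4a3 and Col4a4 start head to head, and the 71 bases between them, at chr1:82586850-82586920 and read here on the minus strand towards Col4a4, held none of the motifs.
Col28a1: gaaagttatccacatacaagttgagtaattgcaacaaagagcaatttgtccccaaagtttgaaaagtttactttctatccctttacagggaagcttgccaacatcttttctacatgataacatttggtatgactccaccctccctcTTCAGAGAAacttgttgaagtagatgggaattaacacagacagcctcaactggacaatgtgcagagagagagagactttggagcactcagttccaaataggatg
Col11a2: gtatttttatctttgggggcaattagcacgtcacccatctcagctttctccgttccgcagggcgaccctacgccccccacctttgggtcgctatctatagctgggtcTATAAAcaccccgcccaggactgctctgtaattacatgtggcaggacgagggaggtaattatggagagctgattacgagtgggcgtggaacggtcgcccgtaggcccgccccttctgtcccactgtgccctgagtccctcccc
Col4a3 to Col4a4: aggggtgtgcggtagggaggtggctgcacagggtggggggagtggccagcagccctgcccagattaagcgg

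Such matches are common and are descriptions of letters only. Of all 32851 windows, 7.02% held TTCNNNGAA, 2.98% the response element core, 6.75% TGANTCA, 1.55% TGACGTCA and 12.4% TATAAA. Among the 49 windows of the 43 genes, TTCNNNGAA was in 3 (Col28a1, Col6a5 and Lamb2), TATAAA in 8, TGANTCA in 1 (Col6a1) and the other motifs in 0. The type IV genes lie as head-to-head pairs. Col4a1 and Col4a2 share 22 bases on chromosome 8, and Col4a5 and Col4a6 start 1308 bases apart on chromosome X. In the pairs of Col4a3 with Col4a4 and Col4a6 with Col4a5, only Col4a4 and Col4a5 reached 1 CPM, while Col4a3 and Col4a6 did not.

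In TAM against M0, 19 of the 34 tested genes passed edgeR's quasi-likelihood test at an adjusted p under 0.05, against 50.5% of all genes tested. Of these 12 were higher and 7 lower, where 23.3% of all genes were higher and 27.2% lower. The median log2 fold change of the 34 was 0.05, beside -0.02 over all genes. In M1 against M0, 16 of 34 passed, 11 higher and 5 lower, against 25.7% of all genes (12.2% higher, 13.5% lower), with a median of 0.18 beside -0.02. In M2 against M0, 0 of 34 passed, as did 0% of all genes, and 3 of the 34 had an unadjusted p under 0.05, beside 980 of all 14591 genes. DESeq2 also called 0 there. The 3 comparisons share the M0 libraries, so their counts are not independent. Col17a1, Col28a1 and Col14a1 would have failed the low-count filter but for the libraries of 1 group (TAM, M1 and M0 in that order), so they had to differ to be tested. They are among the counts above and those that follow, but their values are given as descriptions with no p.

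Without M0 replicate 1, 36 members were tested, Lamb3 (through TAM alone) and Col6a1 (through M1 alone) being added, and 27 passed in TAM against M0 (15 higher, 12 lower), where 66.7% of all genes passed (33% higher, 33.7% lower). The count was 22 in M1 against M0 (15 higher, 7 lower), where 47.1% passed (24.3% higher, 22.9% lower), and 2 in M2 against M0 (both higher), where 0.341% passed (0.207% higher, 0.134% lower). All 19 TAM calls and all 16 M1 calls of the fit with 12 libraries were among them, in the same direction.

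**Figure D1:**
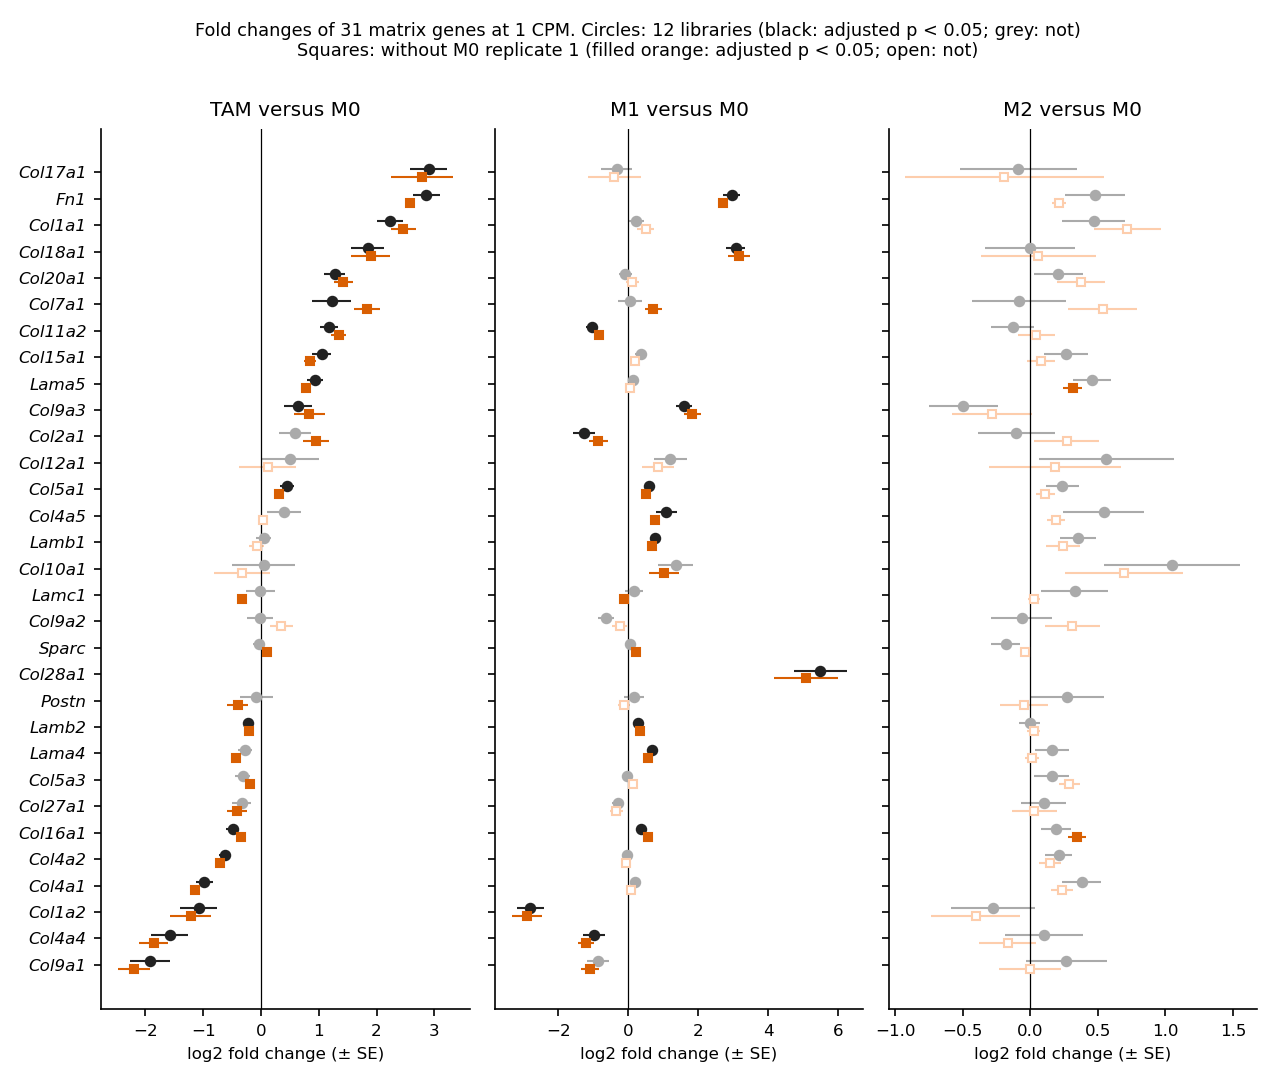
Log2 fold changes with standard errors for 31 genes that reached 1 CPM, in TAM, M1 and M2 against M0, with all 12 libraries (circles) and without M0 replicate 1 (squares). Panels have their own scales; Col28a1 is left out of TAM and M2 because both groups had at most 1 count there, and its M1 value is a fitted one. Fn1 stands at 2.86 in TAM and 2.96 in M1, while Col11a2 lies on opposite sides of 0 in these panels.

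Fn1, fibronectin (chr1:71585520-71653200, minus strand), was much higher in TAM and M1 than in M0. It had 553, 597 and 567 CPM in TAM, 614, 603 and 619 CPM in M1, 121, 104 and 104 CPM in M2, and 45.6, 92.7 and 97.5 CPM in M0. TAM and M1 lay far above every M2 and M0 library, and M2 above M0 with M0 replicate 1 lowest of all. Fn1 was 7.28-fold higher in TAM than in M0 (log2 fold change 2.86 ± 0.24 SE, edgeR adjusted p = 3.43e-06) and 7.79-fold higher in M1 than in M0 (2.96 ± 0.24, adjusted p = 5.22e-06). The TAM to M1 difference of -0.10 ± 0.22 did not pass (adjusted p = 0.754). Without M0 replicate 1 the values against M0 were 2.58 in TAM and 2.72 in M1, and the TAM to M1 difference was -0.14 ± 0.04 (adjusted p = 0.00219). In M2 against M0 the value of 0.48 ± 0.22 did not pass (adjusted p = 0.535), nor did 0.21 without M0 replicate 1 (adjusted p = 0.0648). Exons of the antisense gene Apol7d overlap Fn1, and since the strand setting is not given in the sources used here their reads cannot be told apart. Apol7d was itself given at most 13 counts in a library, and its part in the Fn1 values was not tested. In such bulk RNA, here and for every gene that follows, a change in the share of cells of some kind and a change in RNA per cell cannot be told apart.

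Per kilobase of merged exon, the scale on which levels of different genes can be set side by side, Sparc was the highest member in every group. Sparc, a secreted glycoprotein that binds collagen, stood at 198 CPM per kb in TAM, 210.2 in M1, 178 in M2 and 202 in M0. Fn1 was the next in TAM (49.0 CPM per kb) and M1 (52.4), but the fourth in M2 (9.39) and the fifth in M0 (6.73), where Fn1 and Col16a1 (6.74) did not differ beyond their spread. Lamc1 and Lamb2, the main gamma and beta laminin chains here, followed Fn1 in TAM and M1 and were next to Sparc in M2 and M0.

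Sparc itself had 756, 763 and 734 CPM in TAM, 805, 790.0 and 794 CPM in M1, 680.0, 664 and 683 CPM in M2, and 904, 694 and 703 CPM in M0. M0 replicate 1 was the highest library of all, and the other groups lay within or just under the M0 range. No difference from M0 passed in the 12 libraries (TAM -0.03 ± 0.10, M1 0.05 ± 0.10, M2 -0.18 ± 0.10). Without M0 replicate 1, Sparc was higher in TAM by 0.10 ± 0.04 (adjusted p = 0.0164), the sign being turned, and in M1 by 0.23 ± 0.04 (adjusted p = 1.23e-06). Postn, periostin, which binds collagen and fibronectin, averaged 3.66 ± 0.198 CPM in TAM, 4.32 ± 0.0749 in M1, 4.67 ± 0.307 in M2 and 3.87 ± 1.73 in M0 (SD, n = 3 each). It passed in none of the 3 comparisons with M0 over the 12 libraries. Without M0 replicate 1 it was lower in TAM (-0.41 ± 0.18, adjusted p = 0.0464, against -0.08 ± 0.28 and 0.834 with it). Tnc, tenascin-C, had no count.

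**Figure D2:**
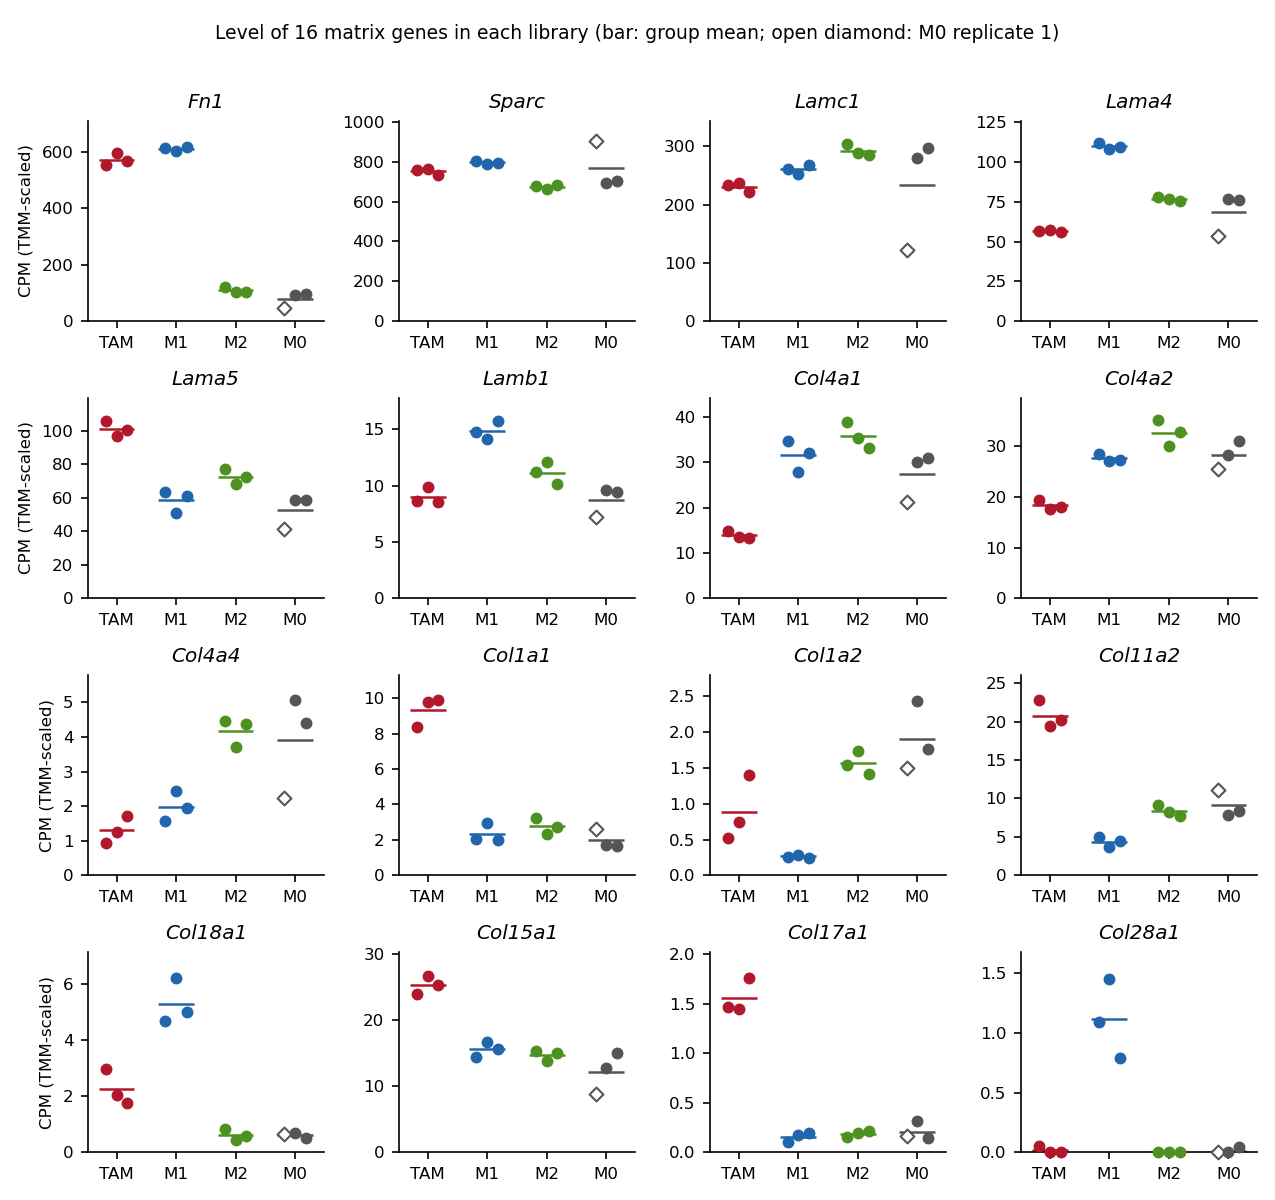
TMM-scaled CPM of selected matrix genes in each library, by group, on a linear scale starting at 0 in each panel, with M0 replicate 1 marked. Fn1 is high in TAM and M1, Col1a1 and Col11a2 are high in TAM, and Col28a1 was counted at 16 to 25 reads per library in M1 and at most 1 elsewhere.

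Of the 11 laminin chains 6 were tested. In TAM against M0, 2 were higher and 1 lower, near the 50.5% called over all genes, and in M1 4 were higher and 0 lower, where 25.7% of all genes were called. Lama5, the alpha chain of many epithelial and vascular basement membranes (chr2:180176373-180225859, minus strand), had 106, 97 and 100.3 CPM in TAM, 63.4, 50.7 and 60.9 in M1, 76.9, 68.4 and 72.0 in M2, and 41.2, 58.4 and 58.8 in M0. All TAM libraries lay above all others, while M1 overlapped M0. The rise in TAM against M0 was 0.94 ± 0.14 (adjusted p = 0.000257), or 0.78 ± 0.07 without M0 replicate 1, and TAM also exceeded M1 (0.79 ± 0.14, adjusted p = 0.000892). In M1 against M0 the value was 0.14 ± 0.14 (adjusted p = 0.469). Lama5 was also 1 of the 2 members called in M2 against M0 without M0 replicate 1, at 0.31 ± 0.07 (adjusted p = 0.0258, against 0.46 ± 0.14 and 0.535 with it).

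Lama4, the alpha chain found around vessels, nerve and muscle (chr10:38965515-39110188, plus strand), had 56.4, 57.3 and 55.8 CPM in TAM, 112, 108 and 109.6 in M1, 77.9, 76.6 and 75.8 in M2, and 53.4, 76.8 and 75.9 in M0. M1 was above all other libraries, and TAM was below all but M0 replicate 1. The rise in M1 against M0 was 0.68 ± 0.12 (adjusted p = 0.00245), and TAM was lower than M1 by -0.96 ± 0.12 (adjusted p = 9.69e-05) and lower than M2 by -0.44 ± 0.12 (adjusted p = 0.0136). Against M0, TAM stood at -0.28 ± 0.12 (adjusted p = 0.0789) with 12 libraries and at -0.44 ± 0.05 (adjusted p = 1.8e-10) without M0 replicate 1.

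Lama5 as a share of Lama4 plus Lama5, each per kilobase, was 66.5%, 64.2% and 65.6% in TAM, 37.5%, 33.1% and 37.1% in M1, 51.2%, 48.6% and 50.2% in M2, and 45.0%, 44.6% and 45.1% in M0. The ranges of the 4 groups did not overlap, and M0 replicate 1 did not stand apart in this ratio, which no library scaling enters. The ratio was chosen after the values had been seen and is a description. The sum of all laminin alpha chains per kilobase ranged from 13.3 to 14 CPM per kb in TAM, 13.5 to 14.9 in M1, 12.4 to 13.2 in M2 and 8.05 to 11.5 in M0.

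**Figure D3:**
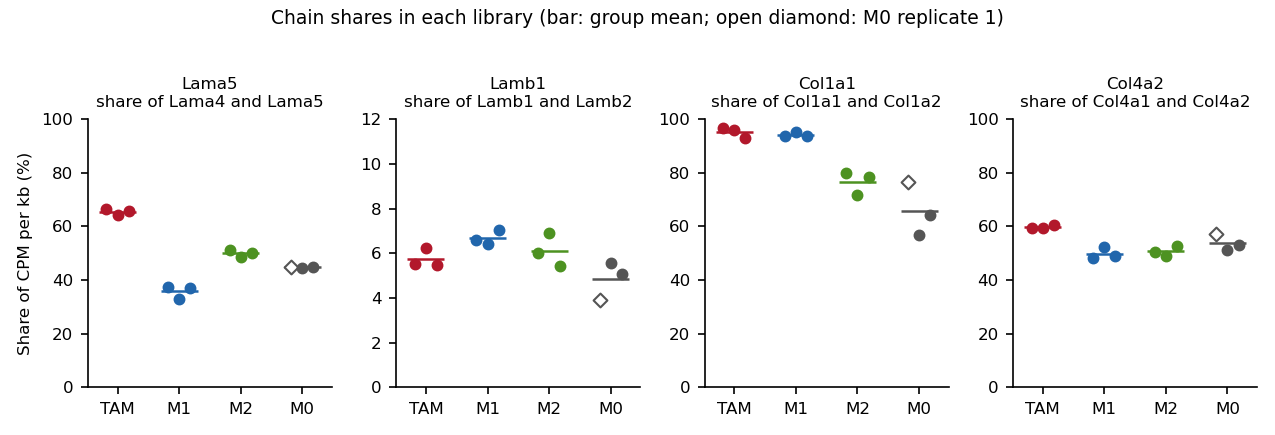
Share of 1 chain in a pair of partner chains, from CPM per kilobase of merged exon, in each library, with M0 replicate 1 marked; the panels have their own scales. The Lama5 share runs from 64.2% to 66.5% in TAM, against 33.1% to 37.5% in M1, 48.6% to 51.2% in M2 and 44.6% to 45.1% in M0.

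Lamb1, Lamb2 and Lamc1 are the partner chains of these alpha chains. Lamb2 averaged 90.8 ± 0.280 CPM in TAM, 127 ± 1.18 in M1, 105 ± 4.62 in M2 and 106 ± 5.11 in M0 (SD, n = 3 each), lower in TAM against M0 (-0.22 ± 0.08, adjusted p = 0.0369) and higher in M1 (0.27 ± 0.08, adjusted p = 0.0296). Lamb1 rose in M1 to 14.9 ± 0.833 CPM, against 8.73 ± 1.29 CPM in M0 (0.77 ± 0.13, adjusted p = 0.0016), and was 9.02 ± 0.772 CPM in TAM (0.05 ± 0.13, adjusted p = 0.79). Lamb1 held 5.46% to 6.26% of the Lamb1 and Lamb2 total per kilobase in TAM, 6.44% to 7.05% in M1, 5.43% to 6.90% in M2 and 3.90% to 5.55% in M0, so Lamb2 was the main beta chain throughout. Lamc1, the gamma chain of most laminins, had 234, 237 and 222 CPM in TAM, 261, 252 and 269 in M1, 304, 289 and 285 in M2, and 122, 279.7 and 298 in M0. M0 replicate 1 had far less Lamc1 than the rest of its group, and its removal decided the calls. With it no comparison with M0 passed (TAM -0.01 ± 0.25, M1 0.16 ± 0.25). Without it Lamc1 was lower in TAM by -0.33 ± 0.04 (adjusted p = 2.58e-09) and in M1 by -0.11 ± 0.04 (adjusted p = 0.0317), the sign in M1 being turned.

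Lamb3, a beta chain of the epidermal basement membrane, was low. It had 0.574, 0.299 and 0.803 CPM in TAM, and at most 0.297 CPM in any other library. It passed the filter only without M0 replicate 1 and only through TAM, so its fitted difference of 3.22 ± 0.93 between TAM and M0 there is a description. Lama3, an alpha chain of the same tissue, stayed at or under 0.522 CPM and was not tested.

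Of the 6 type IV chains 4 were tested. In TAM against M0, Col4a1, Col4a2 and Col4a4 were lower and 0 were higher (27.2% of all genes were lower, 50.5% called). In M1, Col4a4 was lower and Col4a5 higher (25.7% of all genes called). Col4a1 (chr8:11198423-11312826, minus strand), which with Col4a2 forms the ubiquitous type IV trimer, had 14.9, 13.5 and 13.3 CPM in TAM, 34.6, 27.9 and 32.1 in M1, 39.0, 35.3 and 33.1 in M2, and 21.3, 30.1 and 30.9 in M0. Col4a2 (chr8:11312805-11449287, plus strand) had 19.4, 17.6 and 18 CPM in TAM, 28.5, 27.1 and 27.4 in M1, 35.1, 30.0 and 32.8 in M2, and 25.5, 28.3 and 30.9 in M0. For both genes all TAM libraries lay below all other libraries. The fall in TAM was larger for Col4a1 by value, -0.98 ± 0.15 against M0 (adjusted p = 0.00028), than for Col4a2, at -0.62 ± 0.10 (adjusted p = 0.000413). In M1 neither passed (0.20 ± 0.15 for Col4a1, -0.03 ± 0.10 for Col4a2).

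Col4a2 made up 59.4% to 60.4% of the Col4a1 and Col4a2 total per kilobase in TAM, 48.1% to 52.3% in M1, 48.9% to 52.8% in M2 and 51.4% to 57.4% in M0, so TAM lay above the other groups without overlap. Col4a4, a chain of kidney and other specialised membranes, averaged 1.30 ± 0.385 CPM in TAM, 1.98 ± 0.440 in M1, 4.18 ± 0.407 in M2 and 3.90 ± 1.49 in M0 (SD, n = 3 each). It was lower in TAM (-1.58 ± 0.32, adjusted p = 0.00193) and in M1 (-0.98 ± 0.31, adjusted p = 0.039), although M1 and M0 libraries overlapped in M0 replicate 1. Without that library the M1 value was -1.22 ± 0.23 (adjusted p = 1.5e-05). Col4a5, the partner chain on chromosome X, went the other way in M1, with 37.3, 36.8 and 39.1 CPM in TAM, 60.8, 60.8 and 59.7 in M1, 44.1, 41.4 and 39.4 in M2, and 12.5, 36.1 and 37.1 in M0. Its rise in M1 was 1.08 ± 0.30 (adjusted p = 0.0231), and 0.76 ± 0.07 (adjusted p = 2.36e-14) without M0 replicate 1.

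Of the 11 fibrillar chains 7 were tested. In TAM against M0, 3 were higher and 1 lower, near the 50.5% called over all genes, and in M1 1 was higher and 3 lower, where 25.7% of all genes were called. Col1a1 and Col1a2, the partner chains of type I collagen, did not move together. Col1a1 (chr11:94936224-94953042, plus strand) had 8.35, 9.81 and 9.88 CPM in TAM, 2.03, 2.96 and 1.98 in M1, 3.23, 2.33 and 2.73 in M2, and 2.62, 1.69 and 1.68 in M0. All TAM libraries were above all others, by 2.23 ± 0.22 against M0 (adjusted p = 1.37e-05) and 2.01 ± 0.22 against M1 (adjusted p = 2.64e-05). Col1a2 (chr6:4504814-4541544, plus strand) had 0.522, 0.747 and 1.40 CPM in TAM, 0.26, 0.29 and 0.248 in M1, 1.54, 1.73 and 1.42 in M2, and 1.5, 2.44 and 1.77 in M0. It was lowest in M1, where the fall against M0 was -2.81 ± 0.39 (adjusted p = 0.000394), and also lower in TAM (-1.08 ± 0.33, adjusted p = 0.0172). The M1 value rests on 15 counts over 3 libraries, against 103 in M0, and TAM held 53 and M2 91.

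Col1a1 thus made up 93.0% to 96.8% of the type I total per kilobase in TAM and 93.7% to 95.1% in M1, against 71.8% to 79.9% in M2 and 56.7% to 76.7% in M0. In TAM the higher share came with higher Col1a1 and lower Col1a2, in M1 with lower Col1a2 only among the values that passed. The merged exons of Col1a2 span 12426 bases and those of Col1a1 6563, so the size of this share depends on the annotation, while its order between groups does not.

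Col11a2 and Col2a1, chains of cartilage fibrils, were lower in M1. Col11a2 (chr17:34039437-34066685, plus strand) had 22.8, 19.4 and 20.2 CPM in TAM, 5, 3.66 and 4.51 in M1, 9.18, 8.17 and 7.70 in M2, and 11.1, 7.88 and 8.38 in M0. Its groups stood apart in opposite directions, with TAM above M0 by 1.18 ± 0.16 (adjusted p = 0.000106) and M1 below M0 by -1.05 ± 0.17 (adjusted p = 0.000944). The TAM to M1 difference was 2.24 ± 0.17 (adjusted p = 1.3e-06). Col2a1 averaged 4.92 ± 0.382 CPM in TAM, 1.36 ± 0.314 in M1, 3.06 ± 0.764 in M2 and 3.27 ± 1.34 in M0 (SD, n = 3 each). It was lower in M1 (-1.26 ± 0.31, adjusted p = 0.0119), while its TAM value of 0.59 ± 0.28 (adjusted p = 0.098) passed only without M0 replicate 1 (0.95 ± 0.23, adjusted p = 0.000258).

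Col5a1, a chain of type V collagen that starts and limits fibril growth, was the most abundant fibrillar gene per kilobase in TAM. It averaged 56.3 ± 3.01 CPM in TAM, 62.9 ± 3.14 in M1, 48.8 ± 2.46 in M2 and 41.4 ± 7.32 in M0, higher than M0 in TAM (0.44 ± 0.12, adjusted p = 0.0111) and M1 (0.60 ± 0.12, adjusted p = 0.00453). Col5a3, its relative, averaged 31.0 ± 1.56 CPM in TAM, 37.5 ± 3.15 in M1, 43.0 ± 2.33 in M2 and 38.5 ± 6.98 in M0. It was lower in TAM than in M2 (-0.47 ± 0.13, adjusted p = 0.0122). It was lower than in M0 only without M0 replicate 1 (-0.19 ± 0.08, adjusted p = 0.0333, against -0.31 ± 0.13 and 0.0642 with it). TAM and M0 libraries overlapped either way. Col27a1 did not pass in any of the 6 comparisons over 12 libraries, with group means from 4.77 to 6.43 CPM. Without M0 replicate 1 it was lower in TAM than in M0 (-0.42 ± 0.17, adjusted p = 0.0319, against -0.33 ± 0.17 and 0.119 with it).

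Col18a1 and Col15a1, the multiplexins of basement membrane zones, were both higher in TAM. Col18a1, whose end piece is known as endostatin (chr10:77052178-77166548, minus strand), had 2.98, 2.04 and 1.76 CPM in TAM, 4.69, 6.21 and 5 in M1, 0.82, 0.446 and 0.601 in M2, and 0.668, 0.688 and 0.527 in M0. The groups formed 3 levels, M1 above TAM and TAM above M2 and M0, the last of which overlapped. Against M0 the rise was 1.84 ± 0.29 in TAM (adjusted p = 0.000318) and 3.07 ± 0.28 in M1 (adjusted p = 1.28e-05), and TAM was below M1 by -1.23 ± 0.24 (adjusted p = 0.00149). Col15a1 had 24.0, 26.7 and 25.3 CPM in TAM, 14.4, 16.7 and 15.6 in M1, 15.3, 13.8 and 15 in M2, and 8.86, 12.8 and 15 in M0. TAM stood clear of all other libraries, at 1.05 ± 0.16 against M0 (adjusted p = 0.00031), whereas the M1 value of 0.35 ± 0.16 did not pass (adjusted p = 0.138).

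Col17a1, the transmembrane collagen of hemidesmosomes (chr19:47646344-47692094, minus strand), had 1.46, 1.44 and 1.76 CPM in TAM, 0.104, 0.174 and 0.198 in M1, 0.154, 0.198 and 0.219 in M2, and 0.167, 0.313 and 0.144 in M0. It had 92 counts over the TAM libraries and 9 to 11 over each other group. The fitted log2 fold change in TAM was 2.9 ± 0.32 against M0 and 3.24 ± 0.33 against M1, given as descriptions since the gene passed the filter through TAM alone. Col7a1, the collagen of anchoring fibrils, was likewise higher in TAM, with 6.58, 5.82 and 6.02 CPM there, 2.97, 2.09 and 3.12 in M1, 2.51, 1.98 and 2.95 in M2, and 4.46, 1.81 and 1.63 in M0. The rise was 1.22 ± 0.33 (adjusted p = 0.0103), and 1.83 ± 0.23 (adjusted p = 8.26e-10) without M0 replicate 1, which held more Col7a1 than the other M0 libraries. In M1 the value was 0.06 ± 0.35 (adjusted p = 0.918) with that library and 0.72 ± 0.25 (adjusted p = 0.016) without it.

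Col28a1, a collagen described in mouse peripheral nerve (chr6:7997808-8192617, minus strand), was counted almost only in M1. It had 21, 25 and 16 counts in the M1 libraries, against 1, 0 and 0 in TAM, 0 in each M2 library and 0, 0 and 1 in M0. These are few reads, 0.793 to 1.45 CPM in M1, and the gene passed the filter through M1 alone, so the folds that follow are descriptions. M1 stood 60.0-fold above M0 (95% counting interval 10.4 to 2409) and 64.8-fold above TAM (11.2 to 2601), and at least 21.2-fold above M2 where a floor of 3 counts over the group stands for 0.

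Of the 9 FACIT chains 7 were tested. In TAM against M0, 2 were higher and 2 lower, near the 50.5% called over all genes, and in M1 2 were higher and 1 lower, where 25.7% of all genes were called. The 1 lower in M1 was Col14a1, which passed the filter through M0 alone and so had to differ to be tested. Col9a1, Col9a2 and Col9a3 join into type IX collagen of cartilage, yet each had its own pattern. Col9a1 had 0.992, 0.796 and 0.702 CPM in TAM, 1.15, 2.32 and 1.73 in M1, 3.79, 3.22 and 4.37 in M2, and 1.84, 3.56 and 4.02 in M0. It was lower in TAM (-1.92 ± 0.34, adjusted p = 0.00088), and in M1 only without M0 replicate 1 (-1.11 ± 0.25, adjusted p = 0.000234, against -0.86 ± 0.32 and 0.0691 with it). Col9a3 had 2.51, 3.04 and 2.86 CPM in TAM, 5.10, 5.86 and 5.30 in M1, 1.08, 1.63 and 1.09 in M2, and 2.23, 2.00 and 1.2 in M0. It rose in TAM (0.64 ± 0.24, adjusted p = 0.044) and more by value in M1 (1.59 ± 0.23, adjusted p = 0.000568), with TAM below M1 (-0.95 ± 0.22, adjusted p = 0.0051). Exons of Col9a3 overlap those of Tcfl5 on the opposite strand over 234 bases. Since the strand setting is not given, its reads are uncertain to that extent. Col9a2 passed in no comparison with M0, and was higher in TAM than in M1 (0.63 ± 0.23, adjusted p = 0.0446).

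Col16a1, the most abundant FACIT gene per kilobase in M0, had 31.3, 32.1 and 33.7 CPM in TAM, 56.0, 61.2 and 58.9 in M1, 53.0, 51.1 and 51.5 in M2, and 54.4, 41.2 and 40.8 in M0. It was lower in TAM (-0.49 ± 0.11, adjusted p = 0.00413) and higher in M1 (0.37 ± 0.11, adjusted p = 0.0345). It was also the other member called in M2 without M0 replicate 1, at 0.34 ± 0.06 (adjusted p = 0.00338, against 0.19 ± 0.11 and 0.535 with it). Col20a1 had 10.6, 11.4 and 13.0 CPM in TAM, 5.47, 4.18 and 3.96 in M1, 4.97, 6.49 and 5.24 in M2, and 5.79, 4.63 and 4.07 in M0, a rise of 1.28 ± 0.18 in TAM (adjusted p = 0.000164). Its exons overlap those of BX649560.1 on the same strand over 79 bases, a gene with 196 to 245 counts per library in TAM, 113 to 133 in M1, 129 to 171 in M2 and 73 to 152 in M0, so its reads are uncertain to that extent. Col12a1 and Col10a1, at group means of 0.441 to 1.40 CPM, passed in no comparison over 12 libraries. Without M0 replicate 1, Col10a1 was higher in M1 than in M0 (1.02 ± 0.43, adjusted p = 0.0441, against 1.35 ± 0.50 and 0.0677 with it). Col14a1, under 1 CPM in every group, had 0.26, 0.174 and 0 CPM in M1, against 0.724, 0.75 and 0.527 in M0, and Col23a1 passed in no comparison.

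TAM and M1 were also compared directly, and each with M2. In TAM against M1, 20 of 34 passed, 10 higher and 10 lower, where 43% of all genes passed (19.8% higher, 23.3% lower). In TAM against M2, 19 of 34 passed, 11 higher and 8 lower, where 43.2% passed (20.7% higher, 22.6% lower). In M1 against M2, 12 of 34 passed, 7 higher and 5 lower, where 17.2% passed (9.72% higher, 7.5% lower). In TAM against M1, 4 of the 7 fibrillar chains tested passed (Col11a2, Col1a1, Col2a1 and Col1a2), all higher in TAM. Both type IV chains that passed (Col4a1 and Col4a2) were lower. The fibrillar chains were not of 1 direction in the fit without M0 replicate 1, where 4 were higher in TAM and 2 lower. All 4 type IV chains tested were lower there. Without M0 replicate 1, 31 of 36 passed in TAM against M1 (12 higher, 19 lower), where 70.1% of all genes passed (32.4% higher, 37.7% lower). The count was 30 in TAM against M2 (15 higher, 15 lower), where 69.5% passed (34.2% higher, 35.3% lower), and 26 in M1 against M2 (14 higher, 12 lower), where 48.3% passed (24.8% higher, 23.5% lower). None of these comparisons sets that library against another group. It enters them through the shared estimate of the spread, the scaling and the filter. The common dispersion was 0.0324 with it and 0.00166 without it.

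Of 30 genes of collagen processing 22 were tested, with 5 higher and 6 lower in TAM against M0 (median -0.05) and 5 higher and 4 lower in M1 (median 0.12), beside a median of -0.02 over all genes in both. The 11 of 22 called in TAM and 9 of 22 in M1 stand beside 50.5% and 25.7% of all genes, and the TAM values ran from -1.74 to 3.8. The genes with the smallest adjusted p in TAM were all lower. Pcolce, which helps remove the collagen propeptide, averaged 50.2 ± 1.55 CPM in TAM against 167 ± 67.2 in M0 (-1.74 ± 0.21, adjusted p = 6.32e-05, or -1.36 without M0 replicate 1). The lysyl hydroxylase Plod1 (-0.99 ± 0.11, adjusted p = 3.33e-05) and the lysyl oxidases Loxl2 (-1.47 ± 0.21, adjusted p = 0.000155) and Loxl3 (-0.94 ± 0.09, adjusted p = 8.61e-06), which prepare and form crosslinks, were also lower. These genes were picked by adjusted p and do not stand for the list or for the lysyl oxidases. The 5 genes that were higher in TAM, and the highest value of 3.8, are not among them. In M1, Adamts14, a procollagen protease, averaged 76.3 ± 4.89 CPM against 17.1 ± 1.29 in M0 (2.16 ± 0.12, adjusted p = 1.42e-07), and Plod3 was higher (1.08 ± 0.21, adjusted p = 0.00386) and the prolyl hydroxylase P4ha2 lower (-0.62 ± 0.11, adjusted p = 0.00191). A further lysyl oxidase, Loxl4, was higher in M1, though at few reads. It averaged 1.53 ± 0.232 CPM there against 0.173 ± 0.189 in M0 (3.16 ± 0.57, adjusted p = 0.00228).

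Of 13 basement membrane partners 7 were tested, with 3 higher and 2 lower in TAM (median 0.10) and 2 higher and 1 lower in M1 (median 0.08), beside the same 50.5% and 25.7% of all genes called. Npnt, nephronectin, an integrin ligand, fell to 1.08 ± 0.0720 CPM in TAM and 2.20 ± 0.354 in M1, against 11.8 ± 3.47 in M0 (-3.44 ± 0.24 in TAM, adjusted p = 1.03e-06, and -2.42 ± 0.22 in M1, adjusted p = 1.53e-05). Tinagl1, a matricellular protein of basement membranes, rose in TAM to 58.3 ± 1.58 CPM against 24.4 ± 4.22 in M0 (1.26 ± 0.12, adjusted p = 1.1e-05). The proteoglycans perlecan (Hspg2, 1.19 ± 0.24, adjusted p = 0.00442) and agrin (Agrn, 1.17 ± 0.17, adjusted p = 0.000593) rose in M1. Agrn was also higher in TAM than in M0 (0.57 ± 0.17, adjusted p = 0.0174). Dag1, which encodes the laminin receptor dystroglycan, was lower in TAM (-0.68 ± 0.23, adjusted p = 0.0277).

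Of 43 other matrix glycoproteins and proteoglycans 21 were tested, with 7 higher and 8 lower in TAM (median -0.25) and 7 higher and 5 lower in M1 (median 0.09), again beside 50.5% and 25.7%. Ccn1, a matricellular integrin ligand, averaged 383 ± 22.1 CPM in TAM and 52.4 ± 8.46 in M1, against 14 ± 3.49 in M0 (4.77 ± 0.20 in TAM, adjusted p = 3.9e-08, and 1.90 ± 0.18 in M1, adjusted p = 1.99e-05). Sparcl1, a relative of Sparc, moved unlike it, with 21.8 ± 1.23 CPM in TAM against 210.6 ± 35.1 in M0 (-3.27 ± 0.13, adjusted p = 2.92e-08). Thbs1, thrombospondin, rose in M1 to 104 ± 6.10 CPM against 7.27 ± 4.58 in M0 (3.84 ± 0.43, adjusted p = 7.78e-05). Ltbp4, which binds latent TGF-beta, was higher in TAM (2.96 ± 0.16) and M1 (1.51 ± 0.15), and fibulin (Fbln1) lower in TAM (-2.68 ± 0.15) and M1 (-1.07 ± 0.14), with adjusted p of at most 0.00022 in each. Of 9 collagen receptors outside the integrins 6 were tested, with 3 higher and 1 lower in TAM (median 0.43) and 3 higher and 0 lower in M1 (median 0.61), beside 50.5% and 25.7%. The collagen-binding kinase Ddr2 averaged 545 ± 22.9 CPM in TAM and 406 ± 10.1 in M1, against 188 ± 70.7 in M0 (1.53 ± 0.23 in TAM, adjusted p = 0.000251, and 1.11 ± 0.23 in M1, adjusted p = 0.00489). Syndecan-1 (Sdc1) was lower in TAM (-1.24 ± 0.11, adjusted p = 4.8e-06). None of the tested genes of these 4 lists passed in M2 against M0. There 2 of 22, 1 of 7, 3 of 21 and 0 of 6 had an unadjusted p under 0.05 by the same test, beside 980 of all 14591 genes.

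These transcripts are long, with merged exons of 3095 to 15228 bases among the 32 genes at 1 CPM, and M0 replicate 1 held less of many of them. Among the 26 genes at 1 CPM in M0, the log2 ratio of replicate 1 to the mean of replicates 2 and 3 ran from -1.55 (Col4a5) to 1.32 (Col7a1), with a median of -0.31. It was below 0 in 15 genes and above 0 in 11, and reached a 2-fold difference in 7. Over all 11016 tested genes at that level the median was 0.02, with 5415 below 0 and 5601 above 0. A 2-fold difference was reached by 2741 of them. For the 26 members, replicate 2 against replicate 3 ran from -0.31 to 0.70. Length did not order the genes closely. Across the 26 genes the ratio had a correlation of r = -0.35 with log2 exon length (Spearman -0.32) and r = 0.75 with GC content (Spearman 0.76), beside -0.61 and 0.53 over 11016 genes at that level. Genes of 1 library are not independent replicates, and these values are descriptions with no test. Col7a1 and Col2a1 are long but rich in GC and were high in replicate 1, while Postn, with the lowest GC content at 44.1%, was among the low ones. Not all genes followed GC content. Lama5 (59.9% GC, 11388 bases) and Col27a1 (59.4%, 13022 bases) were low, at -0.51 and -0.24. Sparc (52.5%, 3788 bases) was high, at 0.37.

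**Figure D4:**
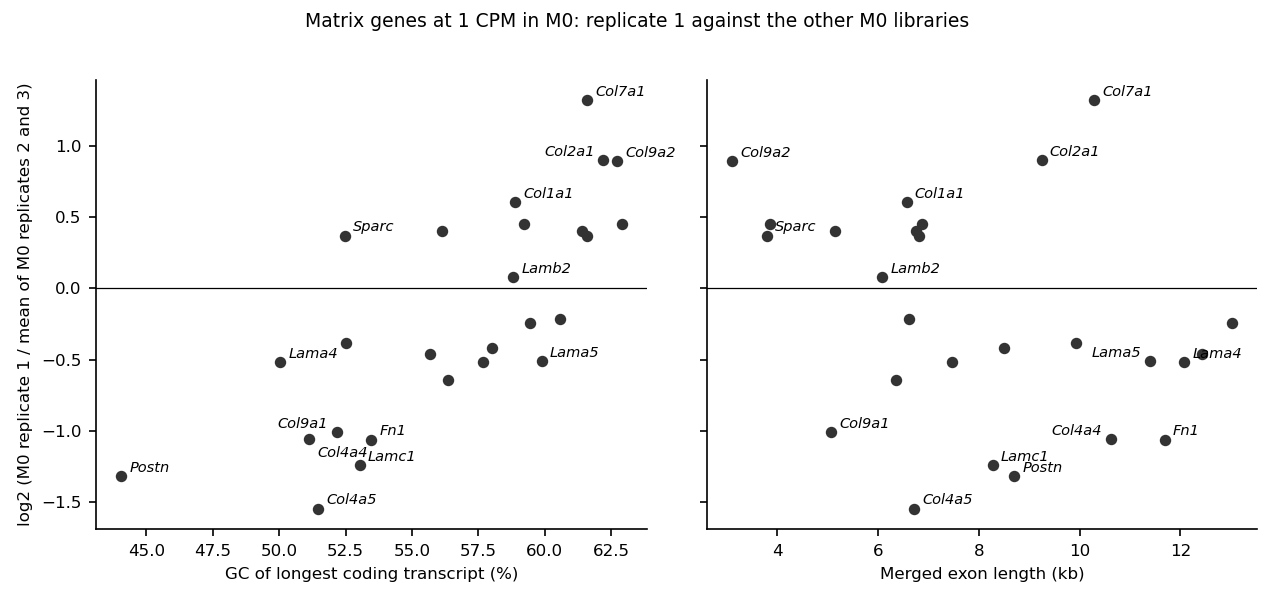
Log2 ratio of CPM in M0 replicate 1 to the mean of M0 replicates 2 and 3 for the 26 matrix genes at 1 CPM in M0, against the GC content of the longest coding transcript and against merged exon length. The points rise with GC content (r = 0.75) and fall loosely with length (r = -0.35), with Col7a1 at the top (1.32) and Col4a5 at the bottom (-1.55).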

How the data were processed

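The authors deposited raw read counts for 55487 Ensembl genes in 12 libraries, whole numbers that no normalisation had touched as far as their values show. Per the labels' protocols, RNA was taken with Trizol for Illumina mRNA libraries, and HISAT2 2.0 and mm10 appear in the submitters' processing notes with no role. Counter, annotation, strand setting and filters: not given in the sources used here. Symbols were found for 55141 genes, and 55227 are in GENCODE release M21 (GRCm38), the source of coordinates and merged exon lengths. The 59 members and the other lists were chosen with earlier results of these data known.

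Groups came from the treatment labels; the title of TAM replicate 2 has a spelling slip. Counts were filtered with filterByExpr by group, scaled by TMM and fitted in edgeR 4.0.16 (R 4.3.3) with robust quasi-likelihood and 1 mean per group over the 12 libraries, after the steps had been tested on simulated data. Each of 6 comparisons was adjusted by Benjamini-Hochberg over all 14591 genes tested (14968 without M0 replicate 1), and a gene was called at an adjusted p under 0.05. Every adjusted p comes from this test, and SE is the absolute log2 fold change over the square root of F. Levels are TMM-scaled CPM; the SD covers 3 libraries. Intervals (exact conditional binomial, 95%) and the floor of 3 counts cover counting error only, since PCR copies cannot be recognised here and are no independent molecules. The ratios of M0 libraries used a pseudocount of 0.1 CPM. Alternatives were RLE factors, no filter, DESeq2 1.42.0, a replicate block and each library left out. GC content and the chain shares were added after the data had been seen. Every member at 1 CPM could be named, and from each other list up to 4 genes with the smallest adjusted p per comparison with M0. Sequences are RefSeq's. A result that the rule names is not reported here.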

Additional observations from a re-analysis of the deposited data

How the results depend on the processing

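The number of members called changed by less than 1.5 times under RLE factors (TAM against M0 19, M1 against M0 16, M2 against M0 0, TAM against M1 21, TAM against M2 18, M1 against M2 14), without a filter (18, 14, 0, 20, 18 and 10 in that order) and with DESeq2 (20, 18, 0, 20, 20 and 14). With each library left out in turn the counts ran from 16 to 27 in TAM against M0, 9 to 22 in M1 against M0, 0 to 2 in M2 against M0, 18 to 31 in TAM against M1, 18 to 30 in TAM against M2 and 7 to 26 in M1 against M2. The upper ends are those without M0 replicate 1. In M1 against M0 leaving out M1 replicate 2 gave 10 and M1 replicate 3 gave 9, and in M1 against M2 leaving out M1 replicate 3, M2 replicate 2 or M2 replicate 3 gave 7 each; the cause was not tested. In 2 of 192 results for genes the sign turned and the turned value passed, both against M0 and without M0 replicate 1. These were Lamc1 in M1 (-0.11, range -0.11 to 0.38 over the libraries left out) and Sparc in TAM (0.10, range -0.10 to 0.10). Values that passed in neither fit also turned sign without that library, such as Postn in M1 (0.16 to -0.12) and Col7a1 in M2 (-0.09 to 0.53). Of the 85 called results 65 kept their call in every setting. The number of genes at 1 CPM stayed at 32 under RLE factors and without M0 replicate 1. With replicate number as a block the counts were 18, 13, 0, 19, 18 and 10. Same-numbered libraries had deviations from their group means that correlated from -0.20 to 0.25. With 3 libraries per group these values cannot decide whether the numbers pair the samples, and the labels do not say. Genes under about 1 CPM, Col28a1 and Col1a2 in M1 among them, rest on few reads.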
